A study of Homo sapiens with 8 samples.

Results

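The NuRD complex genes described here are MTA1, MTA2, MTA3, HDAC1, HDAC2, CHD3, CHD4, MBD3, GATAD2A and GATAD2B, 10 genes of the 22411 measured. A gene was read from the array's transcript cluster, its unit for a gene locus, that carried the member's symbol alone. Each of the 10 had 1 such cluster, so no choice between clusters was needed. The complex was chosen by the measured difference of MTA2, which stood among the largest falls between YAP1/TAZ siRNA and control siRNA, so the differences of all members in that comparison are a description and carry no test. The cells were SK-N-MC, an established Ewing sarcoma line. Into 4 cultures siRNAs against YAP1 and siRNAs against TAZ were transfected together, and 4 control cultures received a siRNA without a target. Both groups had 10 nM siRNA delivered with Viromer Blue in the same serum-containing medium, and RNA was taken at 72 h. The cultures were transfected and collected in parallel from 1 cell line, and the mix does not separate the effect of YAP1 from that of TAZ. Their sequences are not given in the sources used.

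NuRD, the nucleosome remodelling and deacetylase complex, joins 2 chromatin activities in 1 assembly. MTA proteins form the scaffold and hold the histone deacetylases HDAC1 and HDAC2 together with the histone-binding proteins RBBP4 and RBBP7. An MBD protein links this part through GATAD2A or GATAD2B to CHD3 or CHD4, ATPases that slide nucleosomes. Most positions in the complex are filled by either of 2 or more paralogues. In Ewing sarcoma cells NuRD has been described as a co-repressor partner of the EWS-FLI1 fusion protein. YAP1 and TAZ, the second encoded by WWTR1, are co-activators that bind DNA through TEAD proteins.

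MTA2 lies on the minus strand of chromosome 11. The RefSeq promoter table for GRCh38.p14 holds 2 windows for it, each from 250 bases before to 50 bases after an annotated start, and the starts are 615 bases apart. They are shown because MTA2 is the member whose signal differed most between the groups. Both are printed 5′ to 3′ on the gene's strand. Capitals mark the ETS core GGAAGT, a core that ETS proteins such as FLI1 bind.
MTA2 upstream start, chr11:62601816-62602115: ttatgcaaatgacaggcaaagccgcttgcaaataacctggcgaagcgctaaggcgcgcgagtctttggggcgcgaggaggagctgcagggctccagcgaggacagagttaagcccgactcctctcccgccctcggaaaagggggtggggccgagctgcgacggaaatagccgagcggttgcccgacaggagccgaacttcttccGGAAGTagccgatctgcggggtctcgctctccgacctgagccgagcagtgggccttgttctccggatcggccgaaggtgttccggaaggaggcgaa
MTA2 downstream start, chr11:62601201-62601500: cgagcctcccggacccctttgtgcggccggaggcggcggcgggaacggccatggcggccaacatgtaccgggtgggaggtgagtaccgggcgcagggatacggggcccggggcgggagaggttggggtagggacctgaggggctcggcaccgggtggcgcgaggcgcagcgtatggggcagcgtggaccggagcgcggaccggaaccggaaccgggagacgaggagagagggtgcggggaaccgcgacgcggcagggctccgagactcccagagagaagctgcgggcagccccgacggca

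The windows were 63.0% and 74.0% G and C. The upstream window held 1 ETS core, which begins 46 bases before the start, and the downstream window held none. Neither held the TEAD core GGAATG or the AP-1 site TGANTCA on either strand. The 10 members had 13 windows in all. Of these, 0 held the TEAD core, 0 the AP-1 site and 2 the ETS core, the second being a GATAD2A window with the core 64 bases before its start. Over all 35116 windows of the table, 14.0% held the TEAD core, 7.71% the AP-1 site and 22.8% the ETS core. No window of a member held more than 1 match, so no matches overlapped. A match is a run of letters, and a missing match says only that these letters are not in the window.

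Array medians over all transcript clusters lay between 4.34 and 4.49 on the log2 scale, and correlations between arrays across genes were 0.992 to 0.998. YAP1 signal was 6.27, 6.41, 6.42 and 6.40 with YAP1/TAZ siRNA, against 7.64, 7.72, 7.71 and 7.66 with control siRNA. WWTR1 was 5.74, 5.91, 5.91 and 5.86, against 6.52, 6.39, 6.42 and 6.57. Both groups were fully apart for both genes, with differences of −1.31 (SE 0.053, limma adjusted p = 4.73e-05) and −0.62 (SE 0.064, limma adjusted p = 0.00898). Without control replicate 1 the WWTR1 difference was −0.605 and missed the threshold (limma adjusted p = 0.0515). A 2-sided exact permutation test gave p = 0.0286 for either gene, which is the lowest value possible with 4 arrays a group. YAP1/TAZ siRNA replicate 2 and control replicate 4 stood apart from the other 6 arrays on the first principal component (46.0% of the variance). As a rough guide, since probes differ in response, the 11 measured of 12 Ewing sarcoma markers had means above those of 51.4% (GLI1) to 99.5% (CCND1) of genes, with CD99 at 98.0%. The range was 24.9% to 80.0% (DCN) for 4 fibroblast markers, 33.1% to 61.4% for 3 sympathetic markers, 16.0% to 54.8% for 4 epithelial markers and 4.08% to 39.9% for 3 blood markers. Of the Ewing markers LIPI fell, by 0.63 (SE 0.070, limma adjusted p = 0.0136), and no other passed.

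MTA2, a scaffold subunit that binds HDAC1 and HDAC2, was the member that differed most. Its log2 signal was 10.02, 9.83, 10.11 and 10.06 with YAP1/TAZ siRNA, against 11.30, 11.19, 11.02 and 10.71 with control siRNA. Every YAP1/TAZ siRNA array lay below every control array. The means were 10.01 ± 0.12 with YAP1/TAZ siRNA and 11.06 ± 0.26 with control siRNA (SD, n = 4 each). The difference was −1.05 on the log2 scale (SE 0.12, 95% interval −1.33 to −0.77), which on the linear scale was 51.7% less signal. In RNA from whole cultures, fewer cells with the transcript and less transcript per cell cannot be told apart. Of all genes, 0.058% differed by 2-fold or more in either direction. The control arrays spread more widely than the YAP1/TAZ siRNA arrays, with control replicate 4, at 10.71, the lowest of its group.

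The groups of the other scaffold paralogues overlapped. MTA1 was 8.44, 8.30, 8.51 and 8.44 with YAP1/TAZ siRNA, against 8.54, 8.43, 8.39 and 8.31 with control siRNA. The difference was 0.005 (SE 0.068, 95% interval −0.15 to 0.16), and the groups covered nearly the same range. MTA3, the paralogue best known from breast epithelium, was 7.69, 7.75, 7.81 and 7.77 with YAP1/TAZ siRNA, against 7.75, 7.64, 7.68 and 7.66 with control siRNA. Its difference was 0.073 (SE 0.050, 95% interval −0.042 to 0.19), with overlapping groups.

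**Figure D1:**
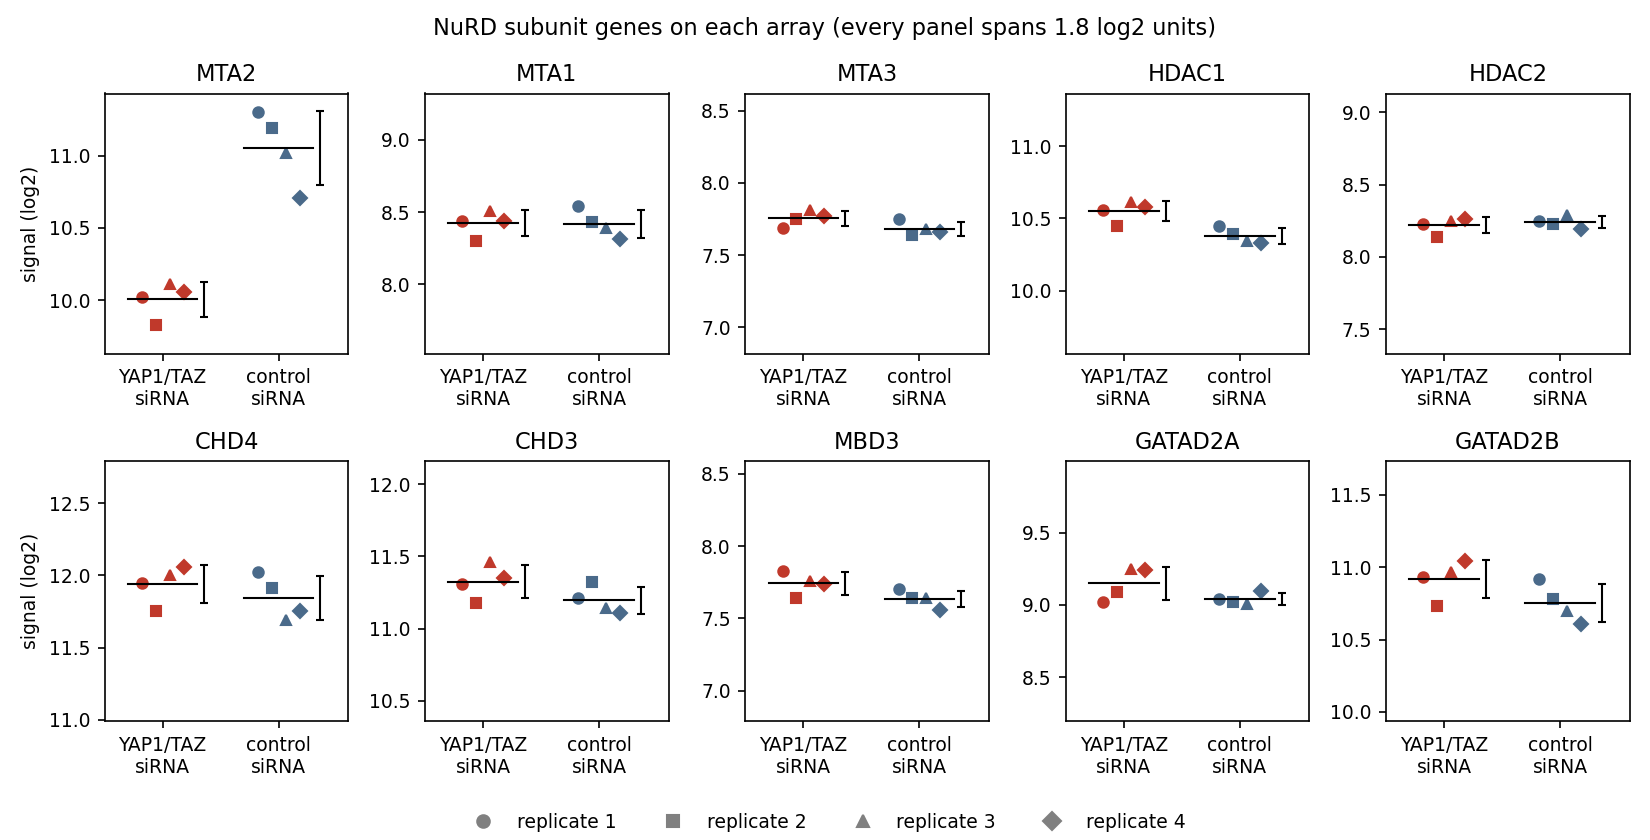
Log2 signal of the 10 NuRD subunit genes on each of the 8 arrays, with YAP1/TAZ siRNA left and control siRNA right; symbols mark replicate numbers, horizontal lines the group mean and bars 1 SD. All panels have the same height in log2 units. The MTA2 groups lie apart (9.83 to 10.11 against 10.71 to 11.30), while those of the other genes meet or overlap.

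HDAC1 and HDAC2 are the catalytic deacetylases, which NuRD shares with the SIN3, CoREST and MiDAC complexes. HDAC1 was 10.56, 10.45, 10.61 and 10.58 with YAP1/TAZ siRNA, against 10.45, 10.39, 10.34 and 10.33 with control siRNA. The groups met at 10.45, the value of YAP1/TAZ siRNA replicate 2 and of control replicate 1. The difference was 0.17 (SE 0.055, 95% interval 0.047 to 0.30), the largest above 0 among the members. HDAC2 was 8.23, 8.14, 8.25 and 8.26 with YAP1/TAZ siRNA, against 8.25, 8.23, 8.29 and 8.19 with control siRNA. Its difference was −0.02 (SE 0.050, 95% interval −0.13 to 0.094), and the groups overlapped. These intervals are not adjusted for the number of genes.

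CHD4, the main ATPase of NuRD in most cells, was 11.95, 11.75, 12.00 and 12.06 with YAP1/TAZ siRNA, against 12.02, 11.91, 11.69 and 11.75 with control siRNA. The difference was 0.098 (SE 0.093, 95% interval −0.11 to 0.31). CHD3, its paralogue, was 11.31, 11.18, 11.46 and 11.35 with YAP1/TAZ siRNA, against 11.21, 11.32, 11.14 and 11.11 with control siRNA, a difference of 0.13 (SE 0.074). Both groups overlapped for both ATPase genes.

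The linking subunits gave small differences above 0. MBD3, which lacks the strong affinity of MBD2 for methylated DNA, was 7.83, 7.64, 7.76 and 7.74 with YAP1/TAZ siRNA, against 7.70, 7.64, 7.64 and 7.56 with control siRNA, a difference of 0.11 (SE 0.058). GATAD2A, a bridge to the ATPase, was 9.02, 9.09, 9.25 and 9.24 with YAP1/TAZ siRNA, against 9.04, 9.02, 9.01 and 9.10 with control siRNA, a difference of 0.11 (SE 0.065). GATAD2B, the other bridge, was 10.93, 10.73, 10.97 and 11.04 with YAP1/TAZ siRNA, against 10.92, 10.78, 10.70 and 10.61 with control siRNA, a difference of 0.165 (SE 0.088). The groups overlapped for all 3 genes.

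**Figure D2:**
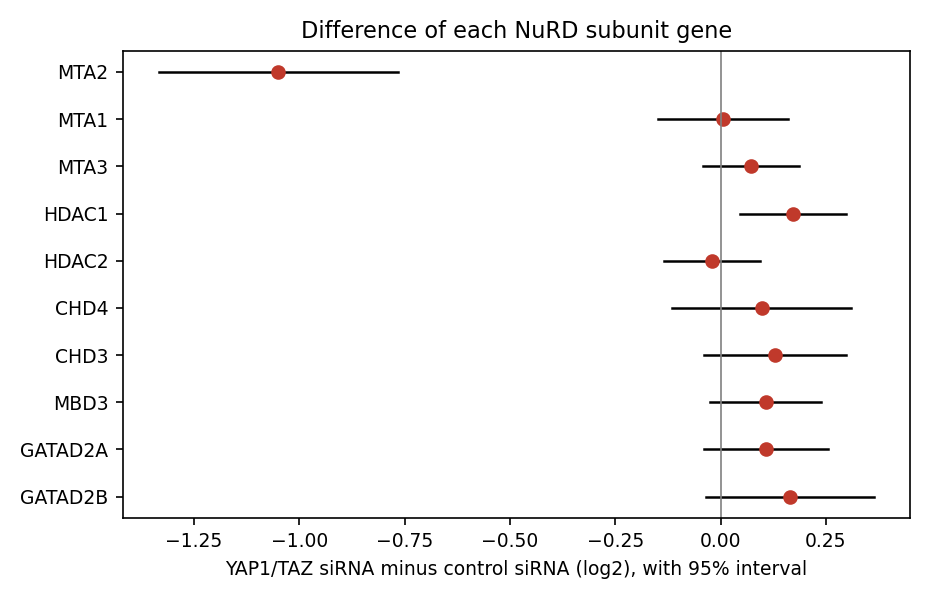
Difference of each NuRD subunit gene between YAP1/TAZ siRNA and control siRNA on the log2 scale (points), with the 95% interval of the limma fit (lines, not adjusted for the number of genes). MTA2 lies at −1.05, and the other 9 genes lie between −0.02 and 0.17.

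Of the 10 members, 1 was called by limma at an adjusted p under 0.05 over all genes, namely MTA2, where 0.214% of all genes passed in either direction and 0.0803% passed downward. With the deposited values of all 8 arrays, MTA2 was also the only member whose groups did not overlap. In that comparison 6.22% of all genes were apart in either direction. The choice of the complex used this comparison, so nothing is read from these counts. The MTA2 call was not kept in every fit that left out 1 array. It held without YAP1/TAZ siRNA replicate 2 (−0.99) or without control replicate 4 (−1.165). It was lost, with 0 members called, when any 1 of the other 6 arrays was left out, although the difference then stayed between −1.085 and −0.97. In those 6 fits 12 to 22 of all genes were called, beside 48 with all 8 arrays. The fits without YAP1/TAZ siRNA replicate 2 and without control replicate 4 called 166 and 24. The MTA2 call was also lost with arrays centred on their median over all transcript clusters (−1.03, SE 0.16). Without both arrays that stood apart it was −1.107 (SE 0.078) and was called, where 0.839% of all genes were called. The other 9 members had a median difference of 0.11, with 8 above 0 and 1 below. Over all genes the median was 0.0075, with 12042 above 0 and 10369 below. After quantile normalization over all transcript clusters the median of these 9 members was 0.055, with 7 above 0 and 2 below. The median of all genes in that setting is not given here.

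Ratios within each array, which cancel only a displacement common to both genes, set MTA2 against its partners. The absolute size of such a ratio depends on the probes, so the change in it is what counts. MTA2 minus MTA1 was 1.58, 1.53, 1.6 and 1.62 on the YAP1/TAZ siRNA arrays, against 2.76, 2.76, 2.63 and 2.40 on the control arrays. Its SD was 0.039 on the YAP1/TAZ siRNA arrays, beside 0.12 for the MTA2 signal itself. Over the 9 partners this SD ran from 0.035 to 0.115 on the YAP1/TAZ siRNA arrays. On the control arrays it ran from 0.14 to 0.288, beside 0.26 for MTA2. MTA2 minus HDAC1 was −0.54, −0.62, −0.50 and −0.52 with YAP1/TAZ siRNA, against 0.85, 0.80, 0.68 and 0.38 with control siRNA. For all 9 partners the YAP1/TAZ siRNA ratios lay below the control ratios. The gap between the groups was smallest for GATAD2A, at 0.61, and widest for GATAD2B, at 0.96. Since MTA2 was chosen for its fall, these ratios are descriptive.

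Arrays that stood apart read low for most members, as they did for many bright genes. Their medians over the genes tested were nevertheless the highest, at 5.09 for YAP1/TAZ siRNA replicate 2 and 5.07 for control replicate 4. The low reading was therefore not uniform over all genes. No difference between the members and other bright genes was tested. YAP1/TAZ siRNA replicate 2 was the lowest array of its group for 8 of the 10 members, all but MTA3 and GATAD2A. Over all genes it was lowest for 33.4%, and over the 11202 genes brighter than the median gene for 56.7%. Control replicate 4 was the lowest of its group for 7 members, namely MTA2, MTA1, HDAC1, HDAC2, CHD3, MBD3 and GATAD2B, beside 30.7% of all genes and 46.8% of those above the median. The median deviation of the 10 members from their group mean was −0.112 on YAP1/TAZ siRNA replicate 2 and −0.080 on control replicate 4. The lowest single deviation was that of MTA2 on control replicate 4, at −0.345. The part of this displacement in the differences given above was not tested beyond the fits without these arrays. Without both arrays, the groups of HDAC1 (0.19, SE 0.051), MBD3 (0.12, SE 0.051) and GATAD2B (0.18, SE 0.070) no longer overlapped, where 21.4% of all genes were apart, and 13.4% upward, with 3 arrays a group, and MTA1 (0.010), HDAC2 (−0.010), MTA3, CHD3, CHD4 and GATAD2A still did.

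**Figure D3:**
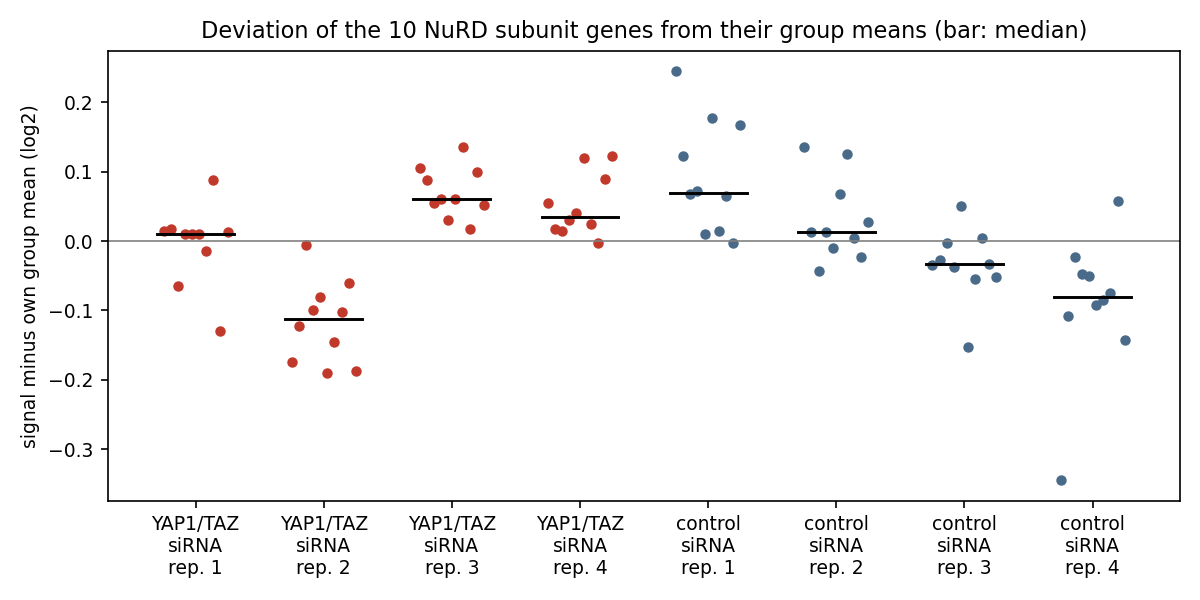
Deviation of each of the 10 NuRD subunit genes (points) from its own group mean on each array, on the log2 scale, with the median as a bar. YAP1/TAZ siRNA replicate 2 (median −0.112) and control replicate 4 (median −0.080) sit lowest in their groups.

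The genes whose profile over the 8 arrays came nearest to that of MTA2 were AJUBA, CNN2, ANXA1, YAP1 and SLC7A5. Likeness was the root mean square log2 difference between profiles centred on their own mean, over 9502 protein-coding genes with a mean above the median. The profiles contain the fall for which MTA2 was chosen, so the measure in large part restates that fall, and the 5 genes differed by −1.31 to −0.645. AJUBA, a LIM protein that holds back the Hippo kinases LATS1 and LATS2, was nearest, at 0.114. It read 7.50, 7.14, 7.51 and 7.35 with YAP1/TAZ siRNA, against 8.59, 8.47, 8.65 and 8.12 with control siRNA. As for MTA2, YAP1/TAZ siRNA replicate 2 and control replicate 4 were the lowest of their groups. These arrays were also the lowest for 56.7% and 46.8% of the genes brighter than the median gene. CNN2, a calponin of the actin cytoskeleton, followed at 0.151 and ANXA1, a phospholipid-binding annexin, at 0.176. YAP1 itself was at 0.222 and SLC7A5, a transporter of large neutral amino acids, at 0.229. The other NuRD members, whose differences were small, lay between 0.537 for HDAC2 and 0.626 for HDAC1, beside a median of 0.576 over the genes compared.

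**Figure D4:**
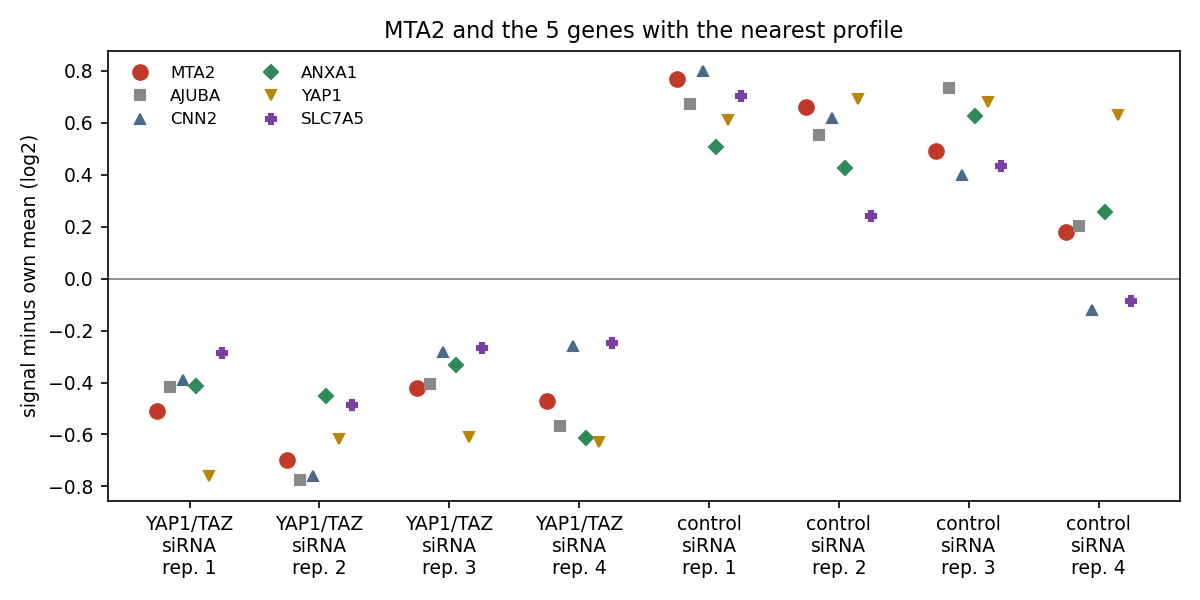
Log2 signal minus the gene's own mean over 8 arrays, for MTA2 and the 5 genes with the nearest profile, on the YAP1/TAZ siRNA arrays (left 4) and the control arrays (right 4). MTA2, AJUBA (root mean square difference 0.114), CNN2 and SLC7A5 are lowest in their groups on YAP1/TAZ siRNA replicate 2 and control replicate 4. These arrays read low for many bright genes.

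The genes beside MTA2 on chromosome 11 differed by −0.32 to 0.125. Of the 3 annotated protein-coding genes on either side, 5 were measured with a symbol of their own, and EEF1G was not analysed here. TUT1, a terminal uridylyltransferase that is the nearest gene on one side, differed by −0.07 (SE 0.063). EML3, a microtubule-binding protein gene that is the nearest on the other, differed by 0.065 (SE 0.055). ROM1, a photoreceptor disc protein, differed by 0.125 (SE 0.048) with groups apart, and B3GAT3, an enzyme of proteoglycan linker synthesis, by 0.063 (SE 0.092). AHNAK, which encodes a giant membrane-linked scaffold protein, was 7.92, 7.99, 8.09 and 7.97 with YAP1/TAZ siRNA, against 8.32, 8.23, 8.34 and 8.37 with control siRNA. Its groups were apart, with a difference of −0.32 (SE 0.057, limma adjusted p = 0.0784). None of the 5 passed the threshold over all genes, and their adjusted p ran from 0.0784 to 0.895. At an unadjusted p under 0.05 there were 2, AHNAK and ROM1, beside 10.3% of all genes.

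Genes of related complexes, and NuRD subunits outside the 10 members, had no part in the choice and were tested over all genes. They formed 10 lists, with 105 of 113 genes measured. These lists were written with earlier results of these data known. By limma 0 of the 105 passed an adjusted p under 0.05, beside 0.214% of all genes. At an unadjusted p under 0.05 there were 14, beside 10.3% of all genes. Their median difference was 0.053, with 73 above 0 and 32 below. Over all genes the median was 0.0075, with 12042 above 0 and 10369 below. Neither median is given here after quantile normalization, and a dependence of the differences on signal level was not tested. The groups were apart upward for 9 and downward for 2, beside 4.19% and 2.03% of all genes. With array quality weights 7 passed, namely BCL11B, RCOR1, TRERF1, CHD7, MBD4, SMARCC2 and BCL7A, where 559 of all 22411 genes were called. After quantile normalization over the genes tested RCOR1 and TRERF1 passed, where 148 of all genes were called. Without YAP1/TAZ siRNA replicate 2 SMARCC2 passed, where 166 of all genes were called.

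The remaining NuRD subunits and their paralogues, 8 genes, had a median difference of −0.0063, with 4 above 0 and 4 below. RBBP4, a histone-binding WD-repeat protein, was 13.78, 13.72, 13.90 and 13.88 with YAP1/TAZ siRNA, against 13.70, 13.65, 13.69 and 13.67 with control siRNA. The groups were apart, with a difference of 0.14 (SE 0.055, limma adjusted p = 0.412). PWWP2A, a reader of H2A.Z nucleosomes that binds the deacetylase part of NuRD, differed by 0.13 (SE 0.083), and its paralogue PWWP2B by −0.12 (SE 0.064). Factors that recruit NuRD to DNA, 16 genes, had a median of 0.048. Among them BCL11B, a zinc finger protein that is high in Ewing sarcoma, differed by 0.22 (SE 0.056), SALL2 by 0.19 (SE 0.070) and ZNF512B by 0.12 (SE 0.046). Their limma adjusted p lay between 0.185 and 0.412.

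Other complexes built on HDAC1 and HDAC2 gave the following values. The SIN3 list, 13 measured genes, had a median of 0.093, with 12 above 0. SAP18 differed by 0.22 (SE 0.080), SUDS3 by 0.17 (SE 0.085) and ING2, a reader of methylated histone H3, by 0.16 (SE 0.089). The CoREST list, 9 measured genes, had a median of −0.013. Its scaffold RCOR1 was 12.31, 12.13, 12.47 and 12.28 with YAP1/TAZ siRNA, against 11.99, 12.02, 11.93 and 11.84 with control siRNA, a difference of 0.35 (SE 0.078, limma adjusted p = 0.134). ZMYM3 differed by 0.215 (SE 0.12) and ZMYM2 by −0.10 (SE 0.078). The list of MiDAC and other genes with the ELM2-SANT fold of MTA proteins, or joined to them, had a median of 0.12 over 8 genes. TRERF1, a MiDAC scaffold, was 7.73, 7.66, 7.79 and 7.91 with YAP1/TAZ siRNA, against 7.36, 7.47, 7.24 and 7.09 with control siRNA. Its groups were apart, and its difference of 0.48 (SE 0.090, limma adjusted p = 0.0905) was the largest of the related genes. MIER3 differed by 0.105 (SE 0.060) and ARID5B by −0.15 (SE 0.072). In the list of the NCoR and SMRT complex, which is built on HDAC3, 4 measured genes with a median of 0.040, HDAC3 differed by 0.195 (SE 0.094), TBL1XR1 by 0.060 (SE 0.068) and CORO2A by −0.037 (SE 0.065).

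Families related to single subunits were as follows. Other CHD remodellers, 6 measured genes, had a median of 0.035. CHD7, mutated in CHARGE syndrome, was 3.96, 4.03, 3.96 and 4.02 with YAP1/TAZ siRNA, against 4.21, 4.25, 4.17 and 4.27 with control siRNA. That is a difference of −0.23 (SE 0.048, limma adjusted p = 0.118), at a signal below the median of all genes. CHD1L differed by −0.105 (SE 0.071) and CHD8 by 0.125 (SE 0.11). Other histone deacetylases, 8 genes, had a median of −0.014 and lay between −0.063 for HDAC7 and 0.035 for HDAC11. HDAC10 differed by −0.033 (SE 0.044). Among 7 other methyl-CpG-binding proteins, MBD4, a DNA glycosylase, differed by 0.25 (SE 0.056, limma adjusted p = 0.136), ZBTB38 by 0.145 (SE 0.062) and MBD6 by −0.073 (SE 0.046). The SWI/SNF remodeller, 26 genes, had a median of 0.095, with 20 above 0. BCL7A differed by 0.295 (SE 0.064), SMARCC2 by 0.21 (SE 0.072) and BRD9 by 0.16 (SE 0.053), and their limma adjusted p lay between 0.13 and 0.352.

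**Figure D5:**
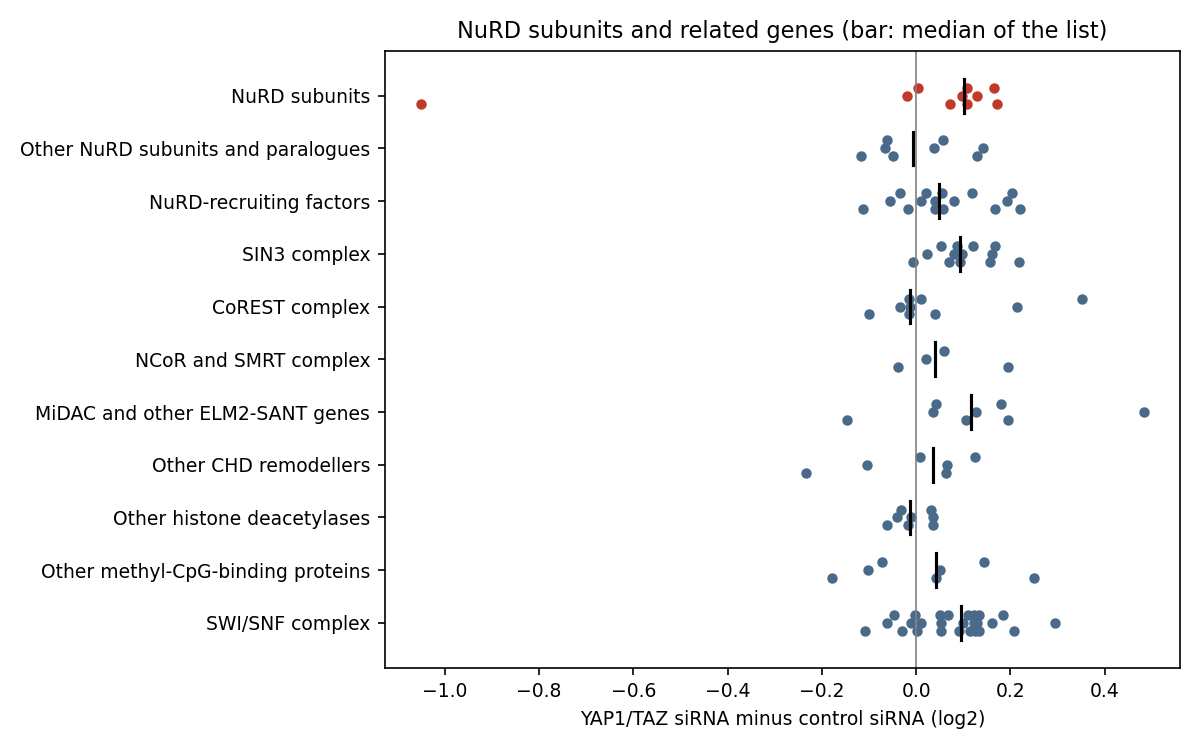
Difference between YAP1/TAZ siRNA and control siRNA on the log2 scale for each NuRD subunit gene (red) and each gene of the 10 related lists (blue), with the median of each list as a bar. MTA2 lies at −1.05, while the 105 related genes lie between −0.23 (CHD7) and 0.48 (TRERF1).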

How the data were processed

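The authors deposited log2 signals per transcript cluster for 8 whole-transcript arrays. Biotinylated cRNA came from the GeneChip WT PLUS kit, per the labels' protocols. Per the submitters' processing notes, Transcriptome Analysis Console was used. The sources used here do not give its version, summary method, normalization between arrays or genome build. The log2 scale was read from the values (2.27 to 19.93). A probe summary tends to compress fold changes, and how far signals lay above background is unknown.

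Groups came from sample titles. Of 67528 clusters, 23781 had 1 gene symbol, 1543 several and 42204 none. Symbols were updated through RefSeq, 21497 by Entrez identifier, 1974 by symbol and 306 by synonym, and 4 were kept. The highest-mean cluster represented the 528 genes with several. The resulting 22411 genes were fitted with limma 3.58.1 in R 4.3.3 (6 residual degrees of freedom, no covariate) with Benjamini-Hochberg adjustment over all genes. The fit was tested on simulated data with independent noise for each gene. These held no displacement shared by the genes of an array, so the test does not cover that feature of the data.

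Members and lists were chosen with earlier results of these data known. Named were all members, YAP1 and WWTR1, and the 3 related genes per list with the smallest p (or all that passed). Neighbours of MTA2, the 5 nearest profiles and some cell type markers were named too. The number of arrays limits the precision.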

Additional observations from a re-analysis of the deposited data

Results flagged for a closer look

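Among 51 genes, 102 groups of 4 arrays were searched for a value far from the other 3. The genes were the members, YAP1 and WWTR1, the named related genes, the measured neighbours of MTA2 and the 5 nearest profiles. In 6 of the groups the gap, as a share of the group's range, was above Dixon's 95% critical value, and chance gives about 1 in 20. None of the 20 groups of NuRD members was among them. YAP1 on YAP1/TAZ siRNA replicate 1 read 6.27, against 6.40 to 6.42 on the other 3 arrays of its group (gap 0.867 of the range). SMARCC2, a SWI/SNF core subunit, read 10.13 on YAP1/TAZ siRNA replicate 2, against 10.38 to 10.42 (gap 0.862). SLC7A5 on the same array read 10.20, against 10.40 to 10.44 (gap 0.833), and this array stood apart on the first principal component. HDAC11 read 4.67 on YAP1/TAZ siRNA replicate 3, against 4.55 to 4.57 (gap 0.833). ZBTB38 read 7.14 on control replicate 1, against 7.08 to 7.09 (gap 0.833). ROM1 read 5.0 on control replicate 3, against 4.95 on each of the other 3 (gap 1.0).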

How the results depend on the processing

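The MTA2 difference lay between −1.165 and −0.97 in all 18 alternatives, and MTA2 was called in 10 of them. Its groups were apart in each. Only centring and quantile normalization could have changed that, since leaving out arrays or altering the fit cannot make separate groups overlap. No other member was called in any. Groups of other members were apart in some settings, namely HDAC1 and HDAC2 after quantile normalization over the genes tested, and MTA3 and HDAC1 without control replicate 1. HDAC1, MBD3 and GATAD2B were apart without YAP1/TAZ siRNA replicate 2, and also without both arrays that stood apart. Fewer arrays in a group make separation easier. The share of all genes apart is given here only for the fit without both arrays. Deviations of same-numbered arrays from their group means correlated at 0.37, −0.47, 0.016 and −0.39 for numbers 1 to 4, so the numbers were not taken as pairs. With the replicate block the MTA2 difference was −1.05 (SE 0.13). The count of NuRD members called was 0 with the replicate number as a block and with arrays centred on their median over all transcript clusters, and 0 to 1 leaving out 1 array. Of 162 values of the other 9 members, 157 moved by less than 1 SD. The 5 others were all from quantile normalization and concerned MTA3, HDAC1 and HDAC2. Several settings, such as the replicate block and genes above the median level only, could not move these values at all. Leaving out 1 array could not move them by 1 SD, so the 157 is no measure of stability. WWTR1 missed the threshold with the replicate block (−0.62, limma adjusted p = 0.147) and without control replicate 1 (−0.605, limma adjusted p = 0.0515), and its range leaving out 1 array was −0.65 to −0.58. YAP1 was called in every alternative. The count of all genes called, 48, was 3 with the replicate block, 17 centred over all transcript clusters, 25 centred over the genes tested, 148 after quantile normalization over the genes tested, 82 with genes above the median level only, 559 with array quality weights, 188 without both arrays that stood apart, and 12 to 166 leaving out 1 array. The count of related genes called was 2 after quantile normalization over the genes tested, 7 with array quality weights, and 0 to 1 leaving out 1 array. Both settings over the genes tested were chosen after seeing the data. The cause of these shifts was not tested. Signal over background is not given, which limits dim genes such as CHD7.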
